A study of Homo sapiens with 6 samples.

Results

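Endothelin and melanocortin signalling was followed through 9 genes in WM164, an established human melanoma cell line. The genes were the endothelin receptors EDNRB and EDNRA, the ligand gene EDN1, the endothelin-converting enzyme ECE1, the melanocortin receptor MC1R, its ligand genes POMC and ASIP, the ubiquitin ligase MGRN1 and the transcription factor CREB1. They were chosen by name, as the rows of the count table that carry these 9 symbols out of 58870 rows, so the rule itself uses no measured value. The names, and the gene lists counted below, were nevertheless chosen with earlier results of these data known. Shares of genes called are therefore descriptions only. RNA sequencing had been performed on 6 libraries, 3 from cells overexpressing green fluorescent protein (GFP) and 3 from cells overexpressing T-MGM, a tethered dimer in which the transcription factors MITF (melanocyte isoform) and MAFG are fused through a flexible linker. Both transgenes were delivered by lentivirus under the EF1α promoter with blasticidin selection, and all cells were grown in RPMI with fetal bovine serum. The study addressed what the MAFG and MITF pair does to melanoma cells, and the comparison made here is T-MGM against GFP. All 6 libraries came from 1 cell line and nothing in the labels says whether the replicates were separate cultures, so the p-values measure the spread between these libraries, which may be technical.

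Endothelins are small vasoactive peptides that are cut from a precursor by endothelin-converting enzymes and act on the receptors EDNRA and EDNRB, which couple mainly to Gq and thereby to phospholipase C beta, calcium release and protein kinase C. EDNRB is the receptor of the melanocyte lineage, where it is needed for the migration and survival of melanoblasts, and keratinocytes supply endothelin to melanocytes in the skin. MC1R is bound by α-melanocyte-stimulating hormone, a product of the POMC precursor, and raises cyclic AMP through Gs and adenylyl cyclase, while the agouti protein encoded by ASIP opposes it. Protein kinase A activated by cyclic AMP phosphorylates CREB1, which drives transcription of MITF, and MITF in turn is a known regulator of pigment genes. The melanocortin route therefore leads to a factor that is part of the T-MGM construct.

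Sequences upstream of a RefSeq start site of both expressed receptor genes are shown because MITF is known to bind E-boxes, of which CATGTG and CACGTG are 2 cores. All 9 genes had at least 1 RefSeq promoter window (GRCh38.p14, 250 bases before to 50 bases after the start site), and 6 motifs were searched on both strands as exact letters, with matches to different motifs allowed to overlap. CATGTG occurred once in the window of EDNRB, at position -151 from the start, and once in the window of MC1R, at -64, and in no window of the other members. Of 35116 promoter windows in the RefSeq table, 11.1% held CATGTG. The upstream parts of these windows are printed on the strand of the gene, with the E-box in capitals (it reads CACATG in EDNRB, where the match lies on the opposite strand). Both stretches lie inside the annotated span of their gene, whose outermost start is further upstream, and 1 other gene has an exon in the EDNRB stretch.
EDNRB, chr13:77919769-77919932, minus strand: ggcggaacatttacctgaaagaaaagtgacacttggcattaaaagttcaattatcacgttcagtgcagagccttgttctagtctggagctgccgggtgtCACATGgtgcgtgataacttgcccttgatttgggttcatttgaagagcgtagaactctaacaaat
MC1R, chr16:89918612-89918850, plus strand: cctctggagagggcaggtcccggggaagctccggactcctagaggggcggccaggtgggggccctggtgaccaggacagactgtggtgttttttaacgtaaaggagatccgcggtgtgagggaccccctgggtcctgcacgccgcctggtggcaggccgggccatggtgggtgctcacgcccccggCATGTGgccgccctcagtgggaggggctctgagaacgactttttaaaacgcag
A second RefSeq window of EDNRB, at chr13:77918782-77919081, held none of the 6 motifs. The other E-box core CACGTG (7.26% of all windows), the cyclic AMP response element TGACGTCA (1.85%) and the AP-1 site TGANTCA (7.71%) were found in no window of the 9 genes. TGACG, the shorter core of the cyclic AMP response element, present in 24.6% of all windows, occurred in EDNRA, EDN1 and MGRN1. TGCTGA, an outer part of the MAF recognition element, present in 17.3%, occurred in EDN1 and ASIP. These matches describe letters only, since no binding was measured in these files.

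Total counts per library ranged from 35057239 to 38738065 in the GFP group and from 44577774 to 59250663 in the T-MGM group, so the T-MGM libraries were the deeper ones, and counts were scaled by size factors before they were compared. A gene with at most 3 counts in every library was taken as not detectable at this depth, which corresponds to 0.0506 to 0.0856 CPM (counts per 1000000 counts) and covers counting error only. Of 8 melanocytic markers, 7 exceeded 1 TPM (a level per transcript length, scaled to the same sum in every library) in every library, and TYRP1 had at most 6 counts. Of 4 markers each for keratinocytes, endothelium, fibroblasts and leukocytes, KRT10, LUM and CD68 alone exceeded 1 TPM, and the summed endothelial TPM was at most 0.35. The genes of the construct gave little sign of it: the normalized count of MITF was 19111 to 19204 with GFP and 20121 to 20447 with T-MGM (log2 fold change 0.08 ± 0.02 SE, DESeq2 adjusted p = 4.80e-07), and that of MAFG was 2397 to 2535 and 2327 to 2396 (-0.06 ± 0.04 SE, adjusted p = 0.236). MAFG was called lower in 6 of 18 alternative analyses, among them the correction for GC content and length (-0.16, adjusted p = 0.000182). Differences on the log2(TPM + 1) scale carry a shift common to all genes, whose median there was -0.13 over 12386 genes averaging 50 or more normalized counts, and they are given below after subtracting that median, which left MITF at 0.07. Calls by limma on that scale were made on the difference before the subtraction, so they do not test the centred values.

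EDNRB was lower with T-MGM, and it was the only one of the 9 genes called in every analysis tried. ECE1 and MC1R did not pass the test, MGRN1 and CREB1 passed it with small differences that were not called after a correction for GC content and length, and EDNRA, EDN1, POMC and ASIP were at the floor in both groups. In the DESeq2 fit, 5 of the 9 genes were tested and 3 were called at an adjusted p at or under 0.05 (1 higher, 2 lower with T-MGM), where 38.4% of all 19135 tested genes were called, 19.2% in each direction. With so few members this share says nothing particular about them. None of the 5 changed by over 2-fold in DESeq2, edgeR or limma at any p, against 4.63% of all tested genes called over 2-fold. The groups did not overlap in normalized count for 3 of the 5 (EDNRB, MGRN1 and CREB1), as for 46.8% of all tested genes.

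EDNRB (ENSG00000136160.16, chr13:77895481-77975529, minus strand) had normalized counts of 4434, 4683 and 4765 in the GFP libraries. In the T-MGM libraries the counts were 2783, 2810 and 2813. Every T-MGM library lay well below every GFP library, and the 3 T-MGM values were close to each other (SD 16.8, against 172 with GFP). The receptor transcript thus fell to 0.605 times the GFP level (95% interval 0.579 to 0.633), which is -0.72 ± 0.03 (SE) as a log2 fold change, with a DESeq2 adjusted p of 5.05e-105. Among 12652 tested genes whose normalized counts averaged 50 or more, 186 (1.47%) had a more negative fold change. In the deposited TPM, EDNRB was 24.97, 27.91 and 26.54 with GFP and 14.97, 14.31 and 14.83 with T-MGM. The fall kept its sign and its call in all 18 alternative analyses, between -0.84 and -0.57, the smaller size coming with a correction for GC content and length (EDNRB exons hold 38.2% GC).

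Values that moved with EDNRB were as follows. Of the genes whose start lay within 10 Mb of it on chromosome 13, 23 averaged 50 or more normalized counts, and their median log2 fold change was -0.15, or -0.03 after the correction for GC content and length. The summed TPM of the 8 melanocytic markers was 1144 to 1168 with GFP and 972 to 1009 with T-MGM, a difference that includes the common shift. Of the 7 markers tested in DESeq2, 3 were called higher (MITF, SOX10 and PMEL, the last 2 at 1.08 and 1.04 times the GFP level) and 4 lower (DCT, MLANA, TYR and S100B). Among these the pigment enzyme gene DCT fell to 0.179 times and the melanosome gene MLANA to 0.626 times the GFP level. Both passed in DESeq2, MLANA with an adjusted p of 4.61e-121 and DCT with one too small to be printed. With the correction for GC content and length, SOX10 (-0.03, DESeq2 adjusted p = 0.150) and PMEL (-0.02, adjusted p = 0.434) were no longer called higher. MITF and the 4 lower markers kept their calls. Whether the fall of EDNRB belongs to the change in these genes was not tested. In bulk RNA, fewer cells with the transcript and less transcript per cell cannot be told apart. Overlapping annotated genes had few counts: the antisense gene OBI1-AS1 shares 1.43% of EDNRB exon bases and had at most 9 counts in a library. On the same strand, AL139002.1 shares 2.21% of EDNRB exon bases and had at most 4 counts.

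**Figure D1:**
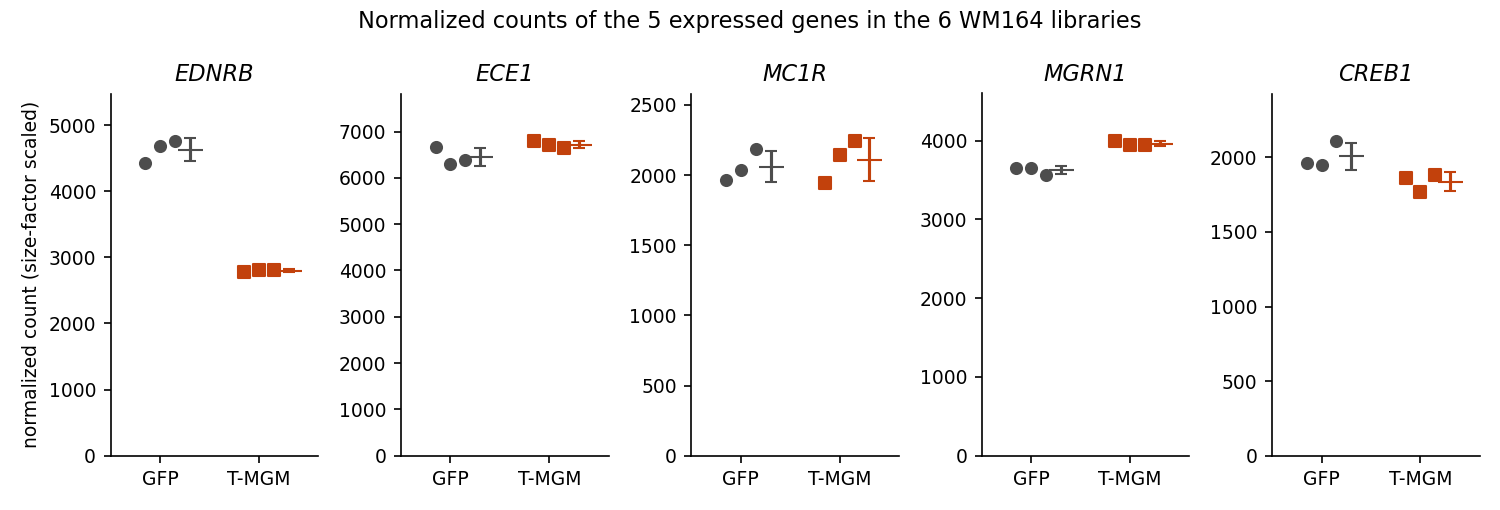
Size-factor normalized counts (y axis, from 0, a separate scale per gene) of the 5 expressed genes in 3 GFP and 3 T-MGM libraries, one point per library, with the group mean ± SD beside the points. The T-MGM values of EDNRB lie between 2783 and 2813, all below the lowest GFP value of 4434, whereas the groups overlap for ECE1 and MC1R.

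The second endothelin receptor, EDNRA (ENSG00000151617.17, chromosome 4), was not detectable at this depth. It had 3, 1 and 0 counts in the GFP libraries and 0 in each T-MGM library, so no fold change is given. EDNRB accounted for at least 99.88% of the summed TPM of the receptor pair in every library. The ligand gene EDN1 (chromosome 6) was at the floor as well, with 1 count in 1 GFP library, 2 counts in 1 T-MGM library and 0 in the other 4. These cells thus carried transcripts of 1 endothelin receptor, and transcripts of its ligand EDN1 were not detectable.

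ECE1, the protease that releases active endothelin from its precursor (ENSG00000117298.16, chr1:21217247-21345572, minus strand), had the highest mean TPM of the 9 genes in both groups, although EDNRB exceeded it in GFP replicate 2. Its normalized counts were 6669, 6304 and 6394 with GFP. With T-MGM they were 6801, 6710 and 6643. The lowest T-MGM value lay inside the GFP range, and the log2 fold change of 0.06 ± 0.03 SE did not pass the test (DESeq2 adjusted p = 0.0575, 95% interval 0.01 to 0.11 before adjustment). The difference was -0.05 after the correction for GC content and length, and 0.06 on the log2(TPM + 1) scale relative to the median gene. GFP replicate 1 had the highest GFP count, and without it the difference of 0.08 passed (adjusted p = 0.0136).

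MC1R, the melanocortin receptor of melanocytes (ENSG00000258839.3, chr16:89912119-89920973, plus strand), had normalized counts of 1962, 2038 and 2184 with GFP. The T-MGM libraries had 1944, 2143 and 2245. The ranges overlapped almost entirely. The log2 fold change was 0.04 ± 0.05 SE (DESeq2 adjusted p = 0.661). Its 95% interval, 0.956 to 1.10 times the GFP level, bounds the difference without showing that the groups are equal. The value was -0.10 with the correction for GC content and length, 0.01 on the log2(TPM + 1) scale relative to the median gene, and -0.01 without T-MGM replicate 3, so no direction is given for MC1R. Reads at this locus are also shared in the annotation: TCF25 on the same strand covers 11.5% of MC1R exon bases (log2 fold change 0.12 ± 0.04 SE, adjusted p = 0.0179), and a read-through gene that runs across MC1R covers 25.0% of them. The read-through gene had 146, 158 and 86 counts with GFP and 336, 196 and 381 with T-MGM (0.81 ± 0.33 SE, adjusted p = 0.0353), small against the counts of MC1R. These counts do not bound the effect of the shared bases on MC1R, which was not tested. On the opposite strand, AC092143.2 covers 18.9% of MC1R exon bases and had at most 11 counts in a library.

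The ligand genes of MC1R were not detectable. POMC (chromosome 2), the precursor of the agonist, had 0 counts in all 6 libraries, which allows at most 0.0506 to 0.0856 CPM. ASIP (chromosome 20), the antagonist, had 1 count in T-MGM replicate 3 and 0 in the other 5 libraries. A difference between the groups below the floor would not have been seen.

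MGRN1, an E3 ubiquitin ligase that is known to limit melanocortin receptor signalling (ENSG00000102858.13, chr16:4616493-4690974, plus strand), had normalized counts of 3656, 3656 and 3567 with GFP. With T-MGM the counts were 3999, 3949 and 3942. All T-MGM libraries were above all GFP libraries by a small margin, and the log2 fold change of 0.13 ± 0.03 SE passed (DESeq2 adjusted p = 0.000103). That rise was absent once GC content and length were corrected for (0.00 on the log2 scale, adjusted p = 0.978; MGRN1 exons hold 61.9% GC). In TPM the gene was at 20.3 to 20.9 with GFP and 19.8 to 21.2 with T-MGM, which is 0.13 on the log2(TPM + 1) scale relative to the median gene, the same size as from counts. The uncentred difference that limma tested was -0.0047 and was not called, and the centred value was not tested.

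CREB1, the transcription factor at the end of the cyclic AMP route (ENSG00000118260.15, chromosome 2, plus strand), had normalized counts of 1959, 1952 and 2112 with GFP. The T-MGM libraries had 1861, 1767 and 1885. The groups did not overlap, although the gap was small against the spread within GFP, and the log2 fold change of -0.13 ± 0.05 SE passed (DESeq2 adjusted p = 0.0167). The call rested on single libraries: it was lost without GFP replicate 3 (-0.09, adjusted p = 0.194) or without T-MGM replicate 2 (-0.10, adjusted p = 0.131). With the correction for GC content and length the sign turned to 0.05 (CREB1 exons hold 35.9% GC), without a call. On the log2(TPM + 1) scale CREB1 was 0.17 relative to the median gene, and 0.04 uncentred as tested by limma, without a call.

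**Figure D2:**
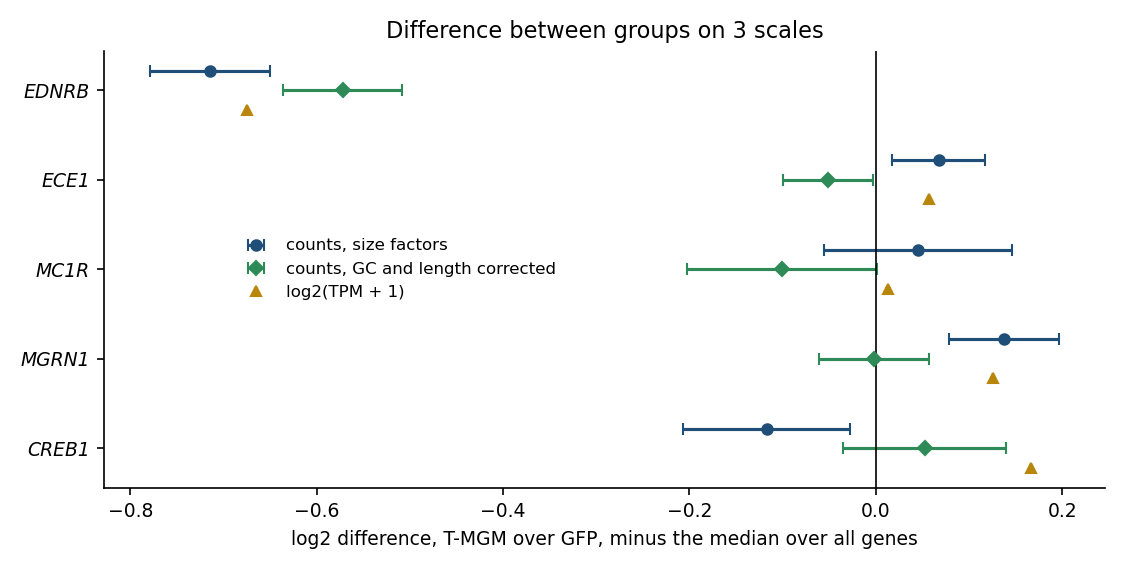
Log2 difference between T-MGM and GFP minus the median over all genes averaging 50 or more normalized counts in the same analysis (x axis) for the 5 expressed genes from counts with size factors (circles, 95% interval), from counts corrected for GC content and length (diamonds, 95% interval) and from log2(TPM + 1) (triangles, no interval drawn). EDNRB stays between -0.71 and -0.57 on all 3 scales and the other genes lie between -0.12 and 0.17, with ECE1, MC1R and MGRN1 above 0 from counts and TPM but not after the GC and length correction.

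In the deposited TPM, the order of the levels per transcript length changed with T-MGM through EDNRB. In GFP libraries the mean TPM was 27.5 for ECE1, 26.5 for EDNRB, 20.6 for MGRN1, 15.5 for MC1R and 9.43 for CREB1. ECE1 and EDNRB did not differ beyond their spread there (27.0 to 28.2 and 25.0 to 27.9), while every later step in the order was between ranges that did not overlap. In T-MGM libraries the order was ECE1 at 26.1, MGRN1 at 20.5, EDNRB at 14.7, MC1R at 14.2 and CREB1 at 9.75. EDNRB and MC1R then overlapped (14.31 to 14.97 and 13.22 to 14.91), so that the endothelin receptor, which had stood above the melanocortin receptor in every GFP library, was level with it within the spread. This depends on the length used: with counts divided by summed exon length, the order was ECE1, EDNRB, MC1R, MGRN1 and CREB1 in both groups. On that scale EDNRB stayed above MC1R without overlap in T-MGM libraries as well (11.4 to 11.5 against 9.39 to 10.8 counts per kilobase and 1000000 counts).

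**Figure D3:**
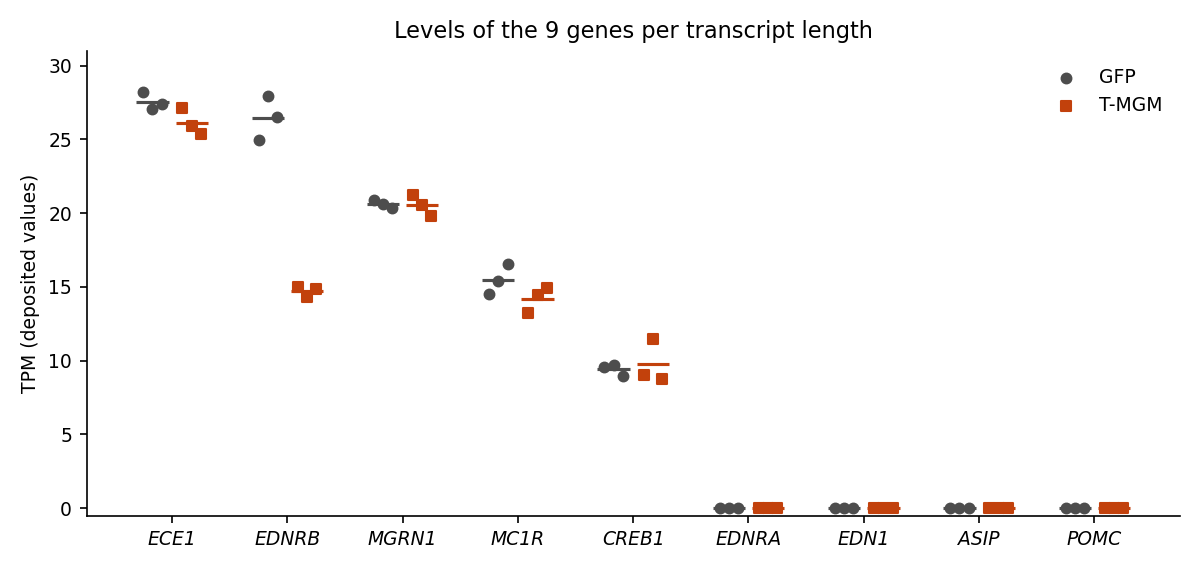
Deposited TPM (y axis, linear) of the 9 genes in each of 3 GFP (circles) and 3 T-MGM (squares) libraries, with horizontal lines at the group means. EDNRB drops from a mean of 26.5 to 14.7 TPM, and EDNRA, EDN1, ASIP and POMC lie at or next to 0 in all libraries.

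The genes whose pattern over the 6 libraries came nearest to that of EDNRB, by Euclidean distance between centred log2 normalized counts among 11652 genes with a mean of at least 100, were PFDN4 (distance 0.0417), ADCY1 (0.0589) and SLC7A11 (0.0709). Their log2 fold changes were -0.70, -0.72 and -0.74. For MGRN1 the nearest genes were SH2B3 (0.0152), TXN2 (0.0226) and C22orf46 (0.0260), and for CREB1 they were WASHC4 (0.0373), NIPAL2 (0.0445) and PRPS2 (0.0451). ADCY1 is an adenylyl cyclase, and thus belongs to the cyclic AMP route described below.

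Downstream of the endothelin receptor, 3 phospholipase C beta genes were called, PLCB1 and PLCB2 higher and PLCB4 lower with T-MGM, while PLCB3, named after its values were seen, was not (0.09 ± 0.06 SE, DESeq2 adjusted p = 0.254). A list of 27 further genes of the endothelin and Gq route (other ligands and converting enzymes, G proteins, phospholipases, calcium channels, kinases, receptor kinases and arrestins) was counted. Of these, 23 were tested and 13 were called, 10 higher and 3 lower with T-MGM (56.5%, beside 38.4% of all tested genes and 19.2% in each direction), with a median log2 fold change of 0.07 over the 23, beside -0.0027 over all tested genes. The correction for GC content and length also left 13 calls, 10 of which were among the first 13 with the same sign. It called 36.3% of all tested genes. Where at least 10 counts in at least 3 libraries were required, 43.2% of all tested genes and 12 genes of this list were called. The ligand genes EDN2 and EDN3 were at or next to the floor, with EDN2 at most 3 counts in every library. EDN3 had 1, 0 and 0 raw counts with GFP and 4, 2 and 9 with T-MGM, too few to be given an adjusted p.

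PLCB1, a phospholipase C beta isoform, had normalized counts of 54.0, 39.0 and 33.1 with GFP and 294, 244 and 274 with T-MGM. The groups were far apart, and the log2 fold change was 2.69 ± 0.20 SE (DESeq2 adjusted p = 5.71e-40), which is 6.47-fold, although mean TPM rose less, from 0.640 to 1.41. PLCB2 went from 1, 5 and 1 raw counts to 64, 59 and 59 (4.32 ± 0.65 SE, adjusted p = 1.86e-10), a fold that rests on few GFP counts and was 5.50 without GFP replicate 2. PLCB4 moved the other way, from 2906, 2947 and 2954 to 2098, 2045 and 1983 normalized counts, with no overlap (-0.52 ± 0.04 SE, adjusted p = 6.37e-42). PLCB1 and PLCB4 are neighbours on chromosome 20, and the median over the expressed genes within 10 Mb was -0.12 and -0.13. PLCB4 nevertheless remained the most abundant isoform in every library: its share of the summed TPM of PLCB1 to PLCB4 was 67.4% to 71.5% with GFP and 52.9% to 58.8% with T-MGM. The share of PLCB1 was 2.09% to 3.79% and 6.90% to 10.9%.

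MME, the membrane protease neprilysin, which is known to cleave endothelin among other peptides, had normalized counts of 246, 222 and 250 with GFP and 567, 496 and 485 with T-MGM. It rose in every T-MGM library above every GFP library (log2 fold change 1.11 ± 0.11 SE, DESeq2 adjusted p = 4.52e-23). Smaller rises were called for the calcium channel ITPR3 (0.19 ± 0.03), the protein kinase C gene PRKCA (0.25 ± 0.04) and the receptor kinase GRK2 (0.25 ± 0.04). On the log2(TPM + 1) scale these 3 were 0.17, 0.17 and 0.15 relative to the median gene. The uncentred differences that limma tested were 0.04, 0.03 and 0.02, and none was called. ITPR3 shares 10.4% of its exon bases with UQCC2 on the opposite strand. The receptor kinase GRK5 fell (-0.40 ± 0.09, adjusted p = 3.10e-05) and kept its call in all alternatives. The Gq proteins themselves, named here after their values were seen, changed little: GNAQ was called lower (-0.14 ± 0.03) and GNA11 higher (0.10 ± 0.03), and neither was called after the correction for GC content and length.

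Of 44 further genes of the melanocortin and cyclic AMP route (other receptors and accessory proteins, peptide-processing enzymes, G proteins, adenylyl cyclases, protein kinase A subunits, phosphodiesterases and Epac proteins), 43 had a row and 1 was not analysed here. Of these, 32 were tested and 21 were called, 11 higher and 10 lower with T-MGM (65.6%, beside 38.4% of all tested genes), with a median log2 fold change of -0.01. The correction for GC content and length left 16 calls, 14 of them shared in the same direction, beside 36.3% of all tested genes called. The other melanocortin receptors MC2R, MC3R, MC4R and MC5R were at the floor, as was the agouti-related gene AGRP, so MC1R was the only receptor of its family that was detected. The accessory protein MRAP2 rose from 34.8, 42.2 and 19.4 to 69.3, 85.9 and 76.0 normalized counts (1.26 ± 0.30, DESeq2 adjusted p = 0.000123), a low level in both groups.

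Of the inhibitory G proteins, which lower cyclic AMP, GNAI1 and GNAI2 were higher with T-MGM. GNAI1 had normalized counts of 49.2, 22.7 and 29.7 with GFP and 291, 224 and 334 with T-MGM. The groups did not come near each other (log2 fold change 3.08 ± 0.23 SE, DESeq2 adjusted p = 2.95e-39), an 8.45-fold rise from a low level. GNAI2, the abundant isoform, rose from 9141, 9065 and 8987 to 12464, 12460 and 12820 (0.47 ± 0.02 SE, adjusted p = 6.67e-122), and the expressed genes within 10 Mb of it on chromosome 3 had a median of 0.29. GNAI3, named after its values were seen, was called lower (-0.19 ± 0.03), so the third isoform did not follow the others, and that call was lost with the correction for GC content and length. The stimulatory G protein gene GNAS, also named after its values were seen, was called lower (-0.09 ± 0.01 SE, DESeq2 adjusted p = 2.75e-08). With the correction GNAS was -0.18 (adjusted p = 8.14e-40). The median over the expressed genes within 10 Mb of GNAS was -0.21, or -0.23 with the correction.

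Among the adenylyl cyclases, which make cyclic AMP, ADCY1 fell and kept its call in all 18 alternatives. Its normalized counts were 3856, 4115 and 4226 with GFP and 2473, 2403 and 2534 with T-MGM (log2 fold change -0.72 ± 0.04 SE, DESeq2 adjusted p = 3.13e-81). In TPM its share of the summed cyclases was 27.4% to 29.3% with GFP and 16.9% to 19.1% with T-MGM. ADCY3 had the largest share in both groups, 41.3% to 46.7% and 46.0% to 51.9%.

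**Figure D4:**
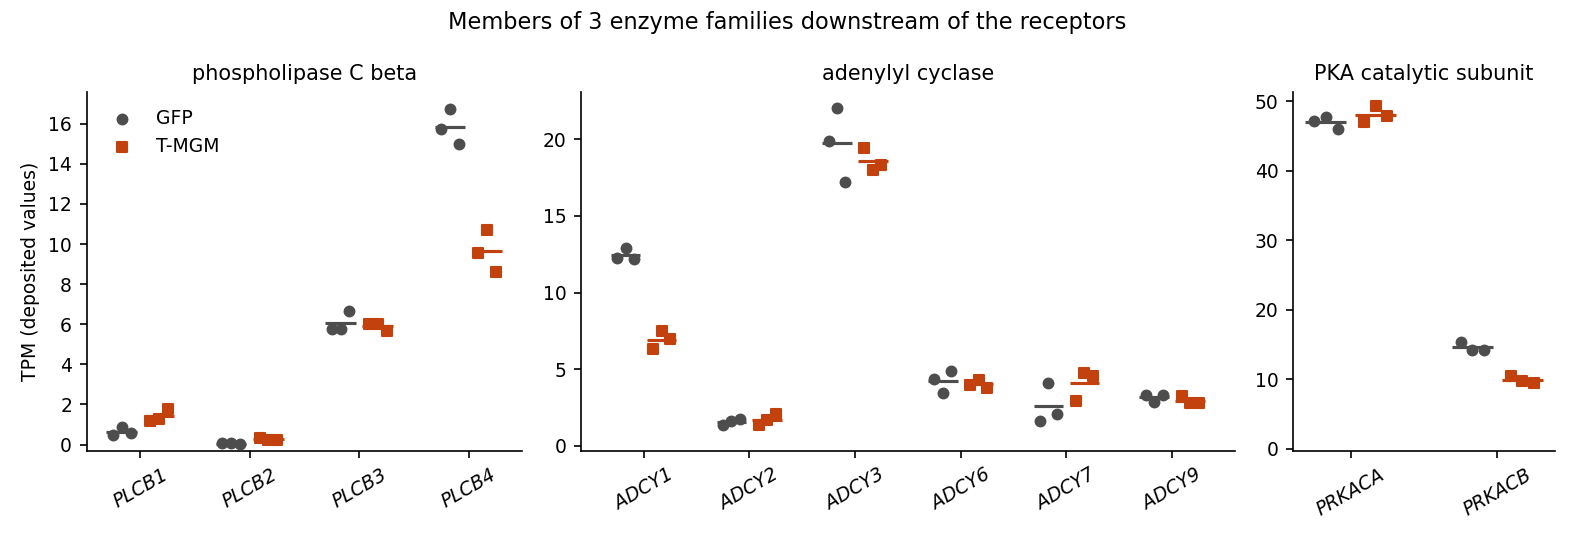
Deposited TPM (y axes, linear, a separate scale per panel) of phospholipase C beta genes, the adenylyl cyclase genes above 1 TPM and the catalytic subunits of protein kinase A in each library, circles for GFP and squares for T-MGM, with lines at the group means. PLCB4, ADCY1 and PRKACB are lower in every T-MGM library than in every GFP library.

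Protein kinase A subunits moved in both directions. The regulatory subunit PRKAR2A rose (log2 fold change 0.54 ± 0.04 SE, DESeq2 adjusted p = 6.08e-46), from 2545, 2430 and 2432 to 3621, 3681 and 3443 normalized counts. It lies close to GNAI2 on chromosome 3, with the same neighbourhood median of 0.29. On the log2(TPM + 1) scale PRKAR2A was 0.48 relative to the median gene, and 0.34 uncentred as tested by limma, without a call. Among the catalytic subunits, chosen after their values were seen, PRKACB was called lower (-0.39 ± 0.04) and PRKACA higher (0.17 ± 0.03), and the share of PRKACB in their summed TPM was 23.0% to 24.5% with GFP and 16.4% to 18.1% with T-MGM. Of the enzymes that degrade cyclic AMP, PDE4B rose (0.35 ± 0.03, adjusted p = 1.69e-23) and PDE7B fell (-1.06 ± 0.19, adjusted p = 1.22e-07). PDE7B had 222, 205 and 244 normalized counts with GFP and 114, 138 and 73.1 with T-MGM. RAPGEF3, the Epac protein that binds cyclic AMP beside protein kinase A, rose from 18, 11 and 12 to 49, 64 and 43 raw counts (1.56 ± 0.41, adjusted p = 0.000689), and antisense RPAP3-DT shares 15.2% of its exon bases.

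Enzymes that process peptide hormones also differed, although POMC itself was not detected. PAM, which amidates peptides, rose from 1736, 1722 and 1762 to 2407, 2545 and 2434 normalized counts (log2 fold change 0.50 ± 0.04 SE, DESeq2 adjusted p = 1.76e-31). PCSK2, a prohormone convertase, fell from 10, 20 and 16 to 8, 1 and 0 raw counts (-2.69 ± 0.84, adjusted p = 0.00453). The call for PCSK2 was lost without GFP replicate 1 (adjusted p = 0.169) or GFP replicate 2 (adjusted p = 0.0622), and the value was -5.35 without T-MGM replicate 1. On the log2(TPM + 1) scale PAM was 0.33 relative to the median gene, and 0.19 uncentred as tested by limma, without a call.

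Of 21 partners and response genes of CREB1, 20 had a row, 20 were tested and 13 were called, 7 higher and 6 lower with T-MGM (65.0%, beside 38.4% of all tested genes). None of the 20 tested genes was called over 2-fold, beside 4.63% of all tested genes, and with so few genes this says nothing particular about them. The median log2 fold change of the 20 was 0.06. After the correction for GC content and length, which called 36.3% of all tested genes, 12 of the 13 calls were kept in direction. The related factor CREB5 showed the clearest difference: its normalized counts were 3312, 3218 and 3303 with GFP and 2200, 2164 and 2196 with T-MGM, without overlap. CREB5 fell (-0.58 ± 0.04, DESeq2 adjusted p = 1.00e-58) and kept its call in all 18 alternatives. The coactivator CRTC1 rose (0.37 ± 0.06, adjusted p = 2.71e-10), whereas the kinase SIK2, which restrains CRTC proteins, fell (-0.26 ± 0.05, adjusted p = 4.88e-07). Their relatives, named after their values were seen, went the other way. CRTC2 (-0.18 ± 0.05, adjusted p = 0.00109) and CRTC3 (-0.15 ± 0.05, adjusted p = 0.0116) were called lower, and SIK3 (0.19 ± 0.04, adjusted p = 8.66e-05) higher.

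Genes that cyclic AMP is known to induce did not move as a block. NR4A2 rose from 837, 914 and 891 to 1229, 1187 and 1195 normalized counts (log2 fold change 0.45 ± 0.06 SE, DESeq2 adjusted p = 4.94e-13). FOS rose as well, from 662, 653 and 716 to 835, 882 and 889 (0.36 ± 0.07, adjusted p = 1.72e-06). NR4A1, named after its values were seen, was called lower (-0.15 ± 0.04, adjusted p = 0.000240). On the log2(TPM + 1) scale NR4A2 was 0.31, FOS 0.27 and SIK2 -0.15 relative to the median gene. The uncentred differences that limma tested were 0.18, 0.14 and -0.28, none of them called. SIK1 and SIK1B are close copies, so the split of reads between them is uncertain, and neither was called.

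**Figure D5:**
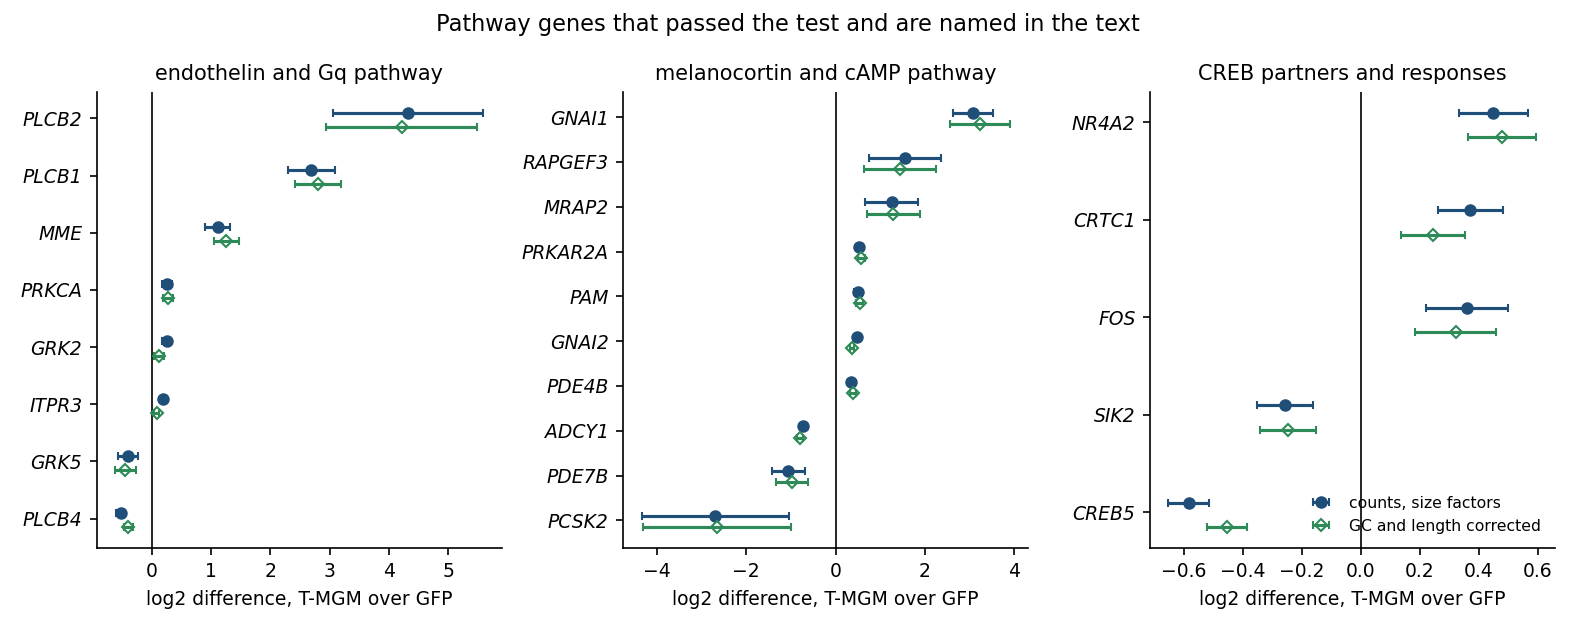
Log2 fold change, T-MGM over GFP (x axes, a separate scale per panel), of the named genes of the endothelin and Gq list, the melanocortin and cyclic AMP list and the CREB list, with 95% intervals, from counts with size factors (filled circles) and after the correction for GC content and length (open diamonds). PLCB2, PLCB1 and GNAI1 show the largest rises, at 4.32, 2.69 and 3.08, and all named genes keep their sign under the correction.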

How the data were processed

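The sample titles gave each library's group and replicate number, and no label named a batch. Per the labels and the study's methods, the authors trimmed reads (cutadapt 1.8.1), aligned them to GRCh38 (STAR 2.7.7a) and used featureCounts on reads with a unique alignment. The deposited counts are whole numbers without normalization. The authors also deposited TPM from RSEM 1.3.0, rounded to 2 decimals. The annotation release is not given in the sources used here. The labels name a library kit without strand information and the methods a strand-specific one, so overlapping and antisense genes are uncertain.

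The whole count table was fitted with DESeq2 1.42.0 (R 4.3.3) on group alone, using its default size factors, 2-sided Wald tests, independent filtering and unshrunken fold changes. Calls required an adjusted p (Benjamini-Hochberg, over all tested genes) of at most 0.05, and calls over 2-fold an absolute log2 fold change above 1 as well. Values after ± are SE for fold changes. The members and lists were chosen with earlier results of these data known.

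Named were all 9 members, list genes called over 2-fold, up to 5 further called genes per list with the largest Wald statistics, the 3 genes nearest in pattern to each called member, MAFG, MITF and genes overlapping a member. Other genes fall outside this rule and were named after their values were seen. The text says so for most of them, but not for ADCY3, SIK1, SIK1B, EDN2, EDN3, AGRP and the melanocortin receptors other than MC1R. Genes for cell type markers are named as such. Positions, exon lengths and GC content are from GENCODE 44 (99.4% of identifiers matched). The GC content given for exons is that of the canonical transcript. Alternatives were edgeR 4.0.16 quasi-likelihood fits, other size factors and count filters, a replicate block, a correction for GC content and length, limma 3.58.1 on log2 TPM (pseudocount 1 or 0.1, TPM of at least 0.5 in 3 libraries, or no filter) and leaving out each library. The correction fitted lowess curves (span 0.3) per library to log2 counts, against GC content and then canonical transcript length. It entered DESeq2 as normalization factors. The filtered edgeR fit was added after seeing the data. Scripts were tested on simulated data. One gene of each of 2 lists is not analysed here.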

Additional observations from a re-analysis of the deposited data

How the results depend on the processing

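EDNRB kept its direction and call under all 18 alternatives (-0.84 to -0.57). The number of members called was 3, but 1 (EDNRB) with the correction for GC content and length, with or without the replicate block, and 1 in each limma fit on TPM, and 2 to 4 when 1 library was left out. Of all tested genes, 36.3% were called with the correction, 30.9% with the correction and the block, and 35.4% to 38.1% when 1 library was left out. On TPM with no filter, a pseudocount of 0.1 and a pseudocount of 1, calls were 6, 6 and 6 for the endothelin and Gq list (13 from counts), 9, 13 and 13 for the melanocortin and cyclic AMP list (21) and 3, 7 and 7 for the CREB list (13). Of all genes tested in these 3 fits, 13.4%, 40.3% and 40.3% were called, beside 38.4% from counts. With TPM the median log2 fold change of 12386 expressed genes was -0.13 with a pseudocount of 1, against -0.01 from counts, and with total-count size factors -0.06. Values below are not centred on it, and relative to it the TPM values of ECE1, MC1R, MGRN1 and MITF and the total-count value of MC1R are above 0, as from counts. In the order GC and length correction, the same with the replicate block, TPM with no filter, pseudocount 0.1 and pseudocount 1, reversed values were -0.051, -0.051, -0.074, -0.076 and -0.074 for ECE1, -0.100, -0.101, -0.118, -0.125 and -0.118 for MC1R, -0.0016, -0.0016, -0.0047, -0.0049 and -0.0047 for MGRN1, and 0.053, 0.052, 0.036, 0.038 and 0.036 for CREB1. MITF was -0.062, -0.062 and -0.062 in the TPM fits. MC1R was -0.018 with total-count size factors and ranged from -0.012 to 0.091 when 1 library was left out. ECE1 passed with TMM size factors (0.069, adjusted p = 0.0188) and in the unfiltered edgeR fit (0.069, adjusted p = 0.0380), and ranged from 0.041 to 0.081 when 1 library was left out. CREB1 ranged from -0.147 to -0.087 in that series. What causes the changes with the GC and length correction was not tested. In limma on TPM with no filter, where more genes were tested, CRTC1 (adjusted p = 0.0631), PLCB1 (0.0902), MRAP2 (0.0720), PDE4B (0.108) and RAPGEF3 (0.125) were not called. GRK2 also lost its call with the GC and length correction and the replicate block together (0.11, adjusted p = 0.103).

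No effect shared by same-numbered libraries was seen: the correlation of same-numbered deviations was -0.0023, -0.040 and 0.043 over 12654 genes, and not every library correlated best with its own number. Such values cannot exclude a pairing with a small effect, and the labels do not settle it. With the replicate block, CREB1 was -0.128 (adjusted p = 0.0651) and EDNRB -0.72, and the members called numbered 2, the list calls 10, 19 and 10. The fit with the block called 36.4% of all tested genes. Depth limits EDNRA, EDN1, POMC and ASIP, where differences below 3 counts per library could not be seen.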

Other observations

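Counts and TPM disagreed for 1 gene of the lists more than for its relatives. GNAI3, the third inhibitory G protein, had mean normalized counts of 5507 with GFP and 4831 with T-MGM, beside 9064 and 12581 for GNAI2, but its TPM was only 3.93 and 3.11 beside 87.8 and 111 for GNAI2. For this reason no share of the GNAI family is given, and the source of the gap was not tested.

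ADCY7 and DUSP1, chosen after their values were seen, belong to the list genes that were called but not described. ADCY7, a further adenylyl cyclase, had normalized counts of 468, 583 and 521 with GFP and 712, 861 and 853 with T-MGM, without overlap (log2 fold change 0.63 ± 0.09 SE, DESeq2 adjusted p = 5.90e-11). It thus moved against ADCY1. DUSP1, a phosphatase gene induced by cyclic AMP and stress, had 239, 201 and 225 with GFP and 326, 341 and 335 with T-MGM (0.59 ± 0.12 SE, adjusted p = 3.33e-06), again without overlap.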
